A study of Saccharomyces cerevisiae with 4 samples.

Results

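The nuclear genes of budding yeast (Saccharomyces cerevisiae) that make, remodel or carry the phospholipids cardiolipin and phosphatidylethanolamine were followed, 10 in number, through a ribosome profiling experiment. They were chosen by function, with earlier results of these data known, and found by name. They were TAM41, PGS1, GEP4, CRD1 and TAZ1 of the cardiolipin pathway, the transfer proteins UPS1, UPS2 and MDM35, and the phosphatidylserine decarboxylases PSD1 and PSD2. All 10 were present among the 6692 genes of the table, and all 10 had enough reads for every comparison. The experiment asked which messages are translated next to the mitochondrial outer membrane. Om45, a protein of that membrane, carried mVenus and BirA, an enzyme that attaches biotin to an Avi peptide, and ribosomes near it were marked on their Avi-tagged Rpl16. Marked ribosomes were collected on streptavidin (the pulldown) and set against all ribosomes of the same culture (the input).

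There were 4 groups of 1 library each: the pulldown with cycloheximide, the input with cycloheximide, the pulldown without it and the input without it. Cycloheximide stops ribosomes on their messages, and cells had 100 µg/ml of it for 2 min ahead of the biotin. All 4 groups received 10 nM biotin for 2 min and came from the same S288C strain. That strain carried OM45-mVenus-BirA at om45 with a HIS5 marker, RPL16a-HA-TEV-AVI at rpl16a, RPL16b-HA-TEV-AVI at rpl16b and the alleles ura3Δ0, met15Δ0 and his3Δ1. The labels also give it pPGK1-BirA with a LEU2 marker at leu2, a ligase without the Om45 part, so enrichment is that of the strain as labelled. With 1 library a group no difference has a replicate check, no test across genes was made, and the drug and the state of the culture cannot be told apart.

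Cardiolipin is the lipid typical of the inner mitochondrial membrane, where it is made. Tam41 turns phosphatidic acid into CDP-diacylglycerol, Pgs1 uses this to make phosphatidylglycerol phosphate, Gep4 removes the phosphate, and Crd1 joins phosphatidylglycerol to a further CDP-diacylglycerol. Cld1 and Taz1 then exchange acyl chains. The starting lipids come from the endoplasmic reticulum, and small complexes carry them across the intermembrane space: Ups1 with Mdm35 moves phosphatidic acid, and Ups2 with Mdm35 moves phosphatidylserine. Psd1 of the inner membrane decarboxylates phosphatidylserine to phosphatidylethanolamine, and Psd2 does the same reaction in membranes of the Golgi, endosomes and vacuole.

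The listed genes held 37467060 reads in the pulldown with cycloheximide, 22528297 in its input, 15705022 in the pulldown without the drug and 18172572 in its input. Enrichment is the log2 ratio of pulldown to input, each scaled to its reads in nuclear genes. On that scale the median gene was at -0.73 with cycloheximide and at -0.03 without it, and in the ratio of the inputs, with over without the drug, it stood at 0.74. All log2 values below are therefore relative to that comparison's median gene unless library totals are named, and bracketed 95% intervals cover counting error only. The bait OM45 stood at 4.27 with cycloheximide, and RPL16A and RPL16B, which encode the tagged ribosomal protein, at 0.12 and 0.22. Of the labelled deletions, MET17 (MET15) held 4 reads in 1 library, the pulldown with cycloheximide, and 0 elsewhere, and URA3 held 0 reads in all 4.

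The 10 genes are scattered over the genome, and each is a protein-coding gene that overlaps no other gene of the reference annotation. In build sacCer3 (R64) CRD1 (YDL142C) lies on the minus strand of chromosome IV from 201719 to 202570, PGS1 (YCL004W) on the plus strand of chromosome III from 109105 to 110670, and TAZ1 (YPR140W) on the plus strand of chromosome XVI from 814391 to 815536. TAM41 (YGR046W) and PSD2 (YGR170W) are both on the plus strand of chromosome VII, from 584895 to 586052 and from 837142 to 840558. UPS1 (YLR193C) and UPS2 (YLR168C) are both on the minus strand of chromosome XII, from 540009 to 540536 and from 499578 to 500270. PSD1 (YNL169C) lies on the minus strand of chromosome XIV from 316169 to 317671, GEP4 (YHR100C) on the minus strand of chromosome VIII from 314116 to 314673, and MDM35 (YKL053C-A) on the minus strand of chromosome XI from 339182 to 339442. Of the 10, 9 carry a mitochondrial annotation in the authors' deposited table, and PSD2 carries none. The table places CRD1, PGS1 and PSD1 in the inner membrane, TAM41 in the matrix and UPS1 in the intermembrane space, and it gives the GFP fusion of MDM35 as seen in cytoplasm and nucleus.

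In whole cells the transfer proteins and PSD1 had higher footprint levels per length than most of the cardiolipin enzymes. Levels are given as RPKM, a level the authors corrected for gene length and for the size of the library. In the input with cycloheximide MDM35 had the highest level at 188 RPKM, followed by UPS1 at 150.1, PSD1 at 127, CRD1 at 72.7, UPS2 at 64.0, TAM41 at 51.9, TAZ1 at 43.2, GEP4 at 28.5, PGS1 at 12.0 and PSD2 at 11.2. Only the last neighbours in this order, PGS1 and PSD2, did not differ beyond counting error. In the input without the drug MDM35 at 143 RPKM and PSD1 at 118 RPKM again came first, and PGS1 at 4.19 RPKM came below PSD2 at 7.82 RPKM. There TAM41 at 21.4 RPKM, CRD1 at 19.9 RPKM and GEP4 at 19.3 RPKM could not be put in order, because the intervals of the neighbouring ratios included equality. PGS1, which commits lipid to the pathway, thus had a level below those of TAM41, GEP4 and CRD1 in both inputs. The level of CRD1 was 6.05 times that of PGS1 (5.47 to 6.69) in the input with cycloheximide and 4.75 times (3.85 to 5.86) without.

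The 3 transfer proteins work as pairs that share Mdm35, so their levels were set side by side. The RPKM of UPS1 and UPS2 summed to 214 in the input with cycloheximide, where MDM35 had 188 RPKM. In the input without the drug the sum was 92.6, against 143 RPKM for MDM35. The sum was thus above the MDM35 level in the first input and below it in the second.

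**Figure D1:**
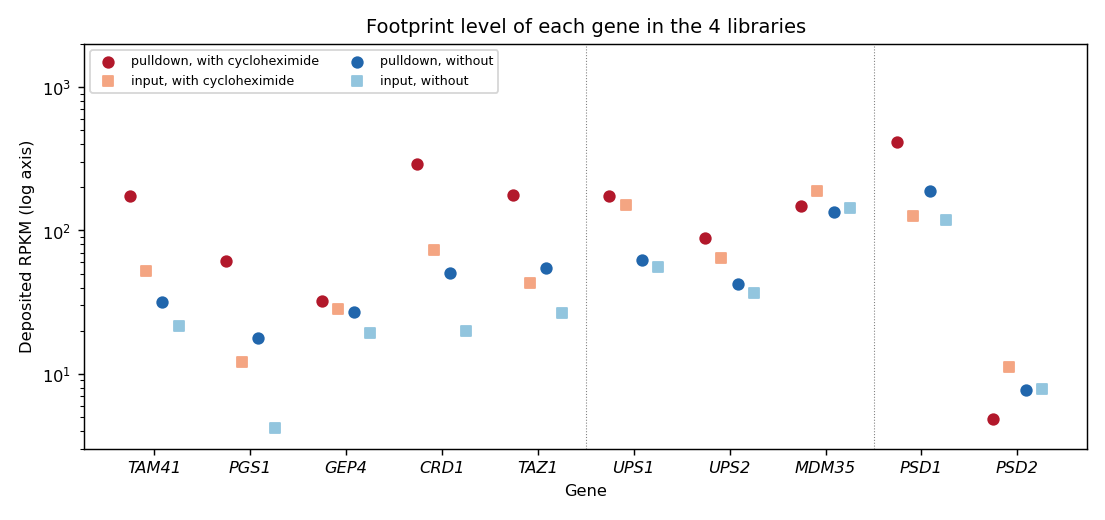
Deposited RPKM (log axis) of each gene in the 4 libraries, circles for pulldowns and squares for inputs, with dotted lines between the cardiolipin pathway, the transfer proteins and the decarboxylases. The pulldown with cycloheximide is the highest of the 4 points for every gene but MDM35, where its input is higher, and PSD2, where it is the lowest. RPKM compares genes within a library, so small gaps between the points of a gene are not to be read as enrichment.

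With cycloheximide, messages of the cardiolipin pathway stood more than 4-fold over the median gene in the pulldown at every step but GEP4, which was less than 2-fold over it. PGS1 had 61.3 RPKM in the pulldown and 12.0 RPKM in the input, and stood at 2.95 (2.82 to 3.09), or 7.75 times the median gene. CRD1, the cardiolipin synthase, had 291 RPKM in the pulldown and 72.7 RPKM in the input, and stood at 2.61 (2.53 to 2.68). TAZ1, the transacylase that remodels cardiolipin, had 178 RPKM in the pulldown and 43.2 RPKM in the input, and stood at 2.64 (2.56 to 2.73). CRD1 and TAZ1 therefore did not differ in enrichment beyond counting error, and both lay below PGS1. TAM41, which supplies CDP-diacylglycerol, had 174 RPKM in the pulldown and 51.9 RPKM in the input, and stood at 2.35 (2.27 to 2.43). GEP4, the phosphatase between PGS1 and CRD1 in the pathway, had 32.2 RPKM in the pulldown and 28.5 RPKM in the input. Its enrichment was 0.78 (0.60 to 0.96), which is 1.83 log2 units below that of CRD1 (interval of CRD1 minus GEP4 1.64 to 2.02). All 5 values were also above 0 on library totals, where GEP4 stood at 0.05.

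The 3 transfer proteins stood lower than PGS1, TAZ1, CRD1, TAM41 and PSD1, and higher than PSD2. UPS2, the carrier of phosphatidylserine, had 88.3 RPKM in the pulldown and 64.0 RPKM in the input with cycloheximide, and stood at 1.07 (0.97 to 1.17). UPS1, the carrier of phosphatidic acid, had 174 RPKM in the pulldown and 150.1 RPKM in the input, and stood at 0.82 (0.74 to 0.90). UPS2 exceeded UPS1 by 0.25 (0.12 to 0.38). MDM35, their small partner with twin cysteine motifs, had 148 RPKM in the pulldown and 188 RPKM in the input, and stood at 0.26 (0.16 to 0.37) relative to the median gene but at -0.46 on library totals, so its direction depends on the scale. On library totals UPS2 stood at 0.34 and UPS1 at 0.09. MDM35 was thus the least enriched of the 9 annotated mitochondrial genes.

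The 2 decarboxylases lay at opposite sides of the median gene. PSD1 had 417 RPKM in the pulldown and 127 RPKM in the input with cycloheximide, and stood at 2.32 (2.28 to 2.37), close to TAM41. PSD2 had 4.82 RPKM in the pulldown and 11.2 RPKM in the input, and stood at -0.61 (-0.76 to -0.47). Only 1.89% of the 5464 genes whose 2 libraries held at least 100 reads together stood lower than PSD2, and 93.2% stood lower than PSD1. On library totals PSD2 stood at -1.34.

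Of the 10 genes, 6 lay 2-fold or more over the median gene with cycloheximide: PGS1, TAZ1, CRD1, TAM41, PSD1 and UPS2. Over all genes with enough reads 12.5% did, and over nuclear genes with a mitochondrial annotation 44.5% did. The median of the 10 was 1.70, against 0.55 over the 1098 annotated mitochondrial genes. Those annotated genes are a mixed class, with values from -1.08 to 4.43. UPS2 lay just past 2-fold, and on library totals, where it did not reach it, the count was 5 of the 10. Of all genes with enough reads 9.13% reached 2-fold on library totals. PGS1 stood above 80.5% of the annotated mitochondrial genes, CRD1 above 73.0%, PSD1 above 69.0% and MDM35 above 41.3%.

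**Figure D2:**
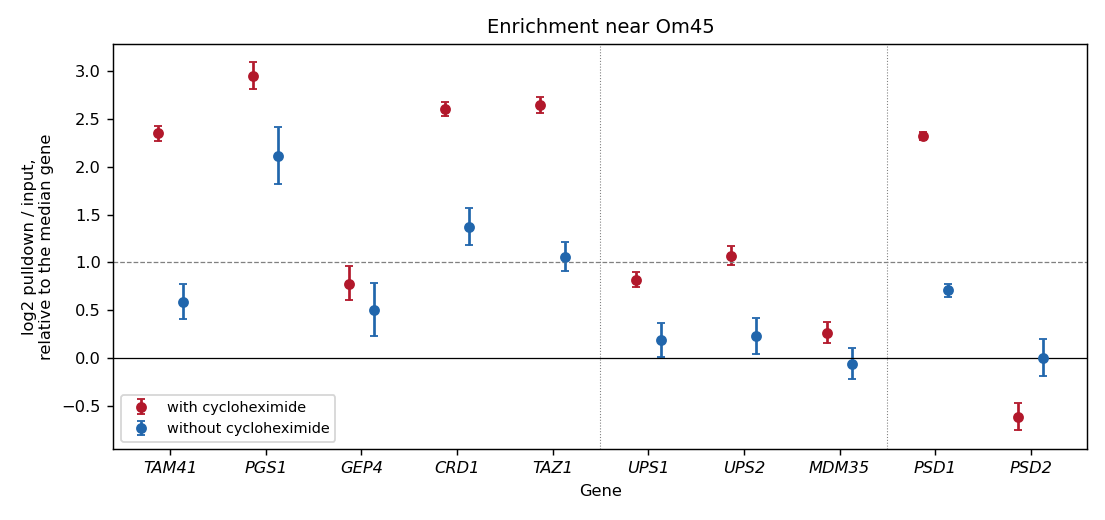
Log2 of pulldown over input for each gene with (red) and without (blue) cycloheximide, relative to that comparison's median gene, from 1 library per group. Bars are 95% counting intervals, the dashed line marks 2-fold, and 6 genes lie above it with cycloheximide and 3 without.

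Without cycloheximide PGS1, CRD1 and TAZ1 had the highest values of the 10 genes, each smaller than with the drug. PGS1 had 17.9 RPKM in the pulldown and 4.19 RPKM in the input, from 444 and 121 reads, and stood at 2.11 (1.83 to 2.42). It ranked 53 among 5148 genes with enough reads, above 95.6% of the annotated mitochondrial genes. CRD1 had 50.9 RPKM in the pulldown and 19.9 RPKM in the input, and stood at 1.38 (1.18 to 1.57). TAZ1 had 54.9 RPKM in the pulldown and 26.8 RPKM in the input, and stood at 1.06 (0.91 to 1.21), so the interval included 2-fold. The order PGS1, CRD1, TAZ1, PSD1 held beyond counting error at each step.

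The other genes were close to one another without the drug. PSD1 had 189 RPKM in the pulldown and 118 RPKM in the input, and stood at 0.71 (0.64 to 0.77). TAM41 had 31.8 RPKM in the pulldown and 21.4 RPKM in the input, and stood at 0.59 (0.41 to 0.77). GEP4 had 27.0 RPKM in the pulldown and 19.3 RPKM in the input, and stood at 0.51 (0.23 to 0.79). These 3 neighbours in the order did not differ beyond counting error. UPS2 had 42.3 RPKM in the pulldown and 36.8 RPKM in the input, and stood at 0.23 (0.04 to 0.42). UPS1 had 62.7 RPKM in the pulldown and 55.9 RPKM in the input, and stood at 0.19 (0.02 to 0.37). Both carriers lay near the median gene. MDM35 had 135 RPKM in the pulldown and 143 RPKM in the input, and stood at -0.06 (-0.22 to 0.10). PSD2 had 7.72 RPKM in the pulldown and 7.82 RPKM in the input, and stood at 0.01 (-0.19 to 0.20). Neither could be told from the median gene.

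Of the 10 genes, 3 lay 2-fold or more over the median gene without cycloheximide, PGS1, CRD1 and TAZ1, against 6.39% of all genes and 24.3% of annotated mitochondrial genes. The median of the 10 was 0.55, against 0.18 over the annotated mitochondrial genes. The authors' deposited table calls a gene enriched by a threshold from a ROC curve, and with cycloheximide it calls 5 of the 10, TAM41, PGS1, CRD1, TAZ1 and PSD1, where 7.58% of all nuclear genes with a call are called. Without the drug it calls PGS1 and CRD1, against 4.52% of genes. By the authors' deposited log2 enrichment TAZ1 stood at 1.04 without cycloheximide, below the lowest called value of 1.24 there.

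Relative to the median gene, enrichment was larger with cycloheximide than without it for 9 of the 10 genes, and on library totals for 6. Relative to the median gene it was larger for 2570 of 5141 genes with enough reads, and for 778 of 1072 annotated mitochondrial genes. The matching shares on library totals are not given here. The size of the difference between conditions did not follow the order of enrichment. The difference, with minus without, was highest for TAM41 at 1.72 (1.53 to 1.91), followed by PSD1 at 1.57 (1.49 to 1.65) and TAZ1 at 1.54 (1.37 to 1.71). TAM41 and PSD1 did not differ beyond counting error, nor did PSD1 and TAZ1. CRD1 stood at 1.19 (0.98 to 1.40). PGS1, first in enrichment under both conditions, had a difference of only 0.80 (0.48 to 1.12), which is lower than that of TAM41 by 0.92 log2 units (interval of PGS1 minus TAM41 -1.29 to -0.55). UPS2 stood at 0.80 (0.59 to 1.01), UPS1 at 0.59 (0.40 to 0.78), MDM35 at 0.28 (0.09 to 0.47) and GEP4 at 0.23 (-0.09 to 0.55). PSD2 was at the other end at -0.66 (-0.90 to -0.42). Of the 10 genes, 4 had a difference 2-fold or more over the median gene, TAM41, PSD1, TAZ1 and CRD1, against 9.57% of all genes and 38.6% of annotated mitochondrial genes. On library totals only TAM41, at 1.07, reached that size, and UPS1, MDM35 and GEP4 turned to values below 0. On that scale the median gene itself stood at -0.65, and 4.55% of all genes reached that size.

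PSD1 and PSD2 catalyse the same reaction in different membranes, and their difference does not depend on scaling. Psd1 has 500 residues and Psd2 1138, and the part of membrane or of length in that difference was not tested. With cycloheximide PSD1 held 24928 reads in the pulldown and 4957 in the input, and PSD2 held 654 and 995. The enrichment of PSD1 exceeded that of PSD2 by 2.94 log2 units (2.79 to 3.08), or 7.65-fold. Without the drug PSD1 held 4508 reads in the pulldown and 3264 in the input, and PSD2 held 418 and 493. PSD1 then exceeded PSD2 by 0.70 (0.50 to 0.90), or 1.63-fold. The gap between the 2 genes was thus 2.23 log2 units larger with cycloheximide (1.98 to 2.48). Per length PSD1 had the higher footprint level in all 4 libraries: its RPKM was 86.7 times that of PSD2 in the pulldown with cycloheximide and 11.3 times in its input, and 24.5 times in the pulldown without the drug and 15.1 times in its input.

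Among the 9 annotated mitochondrial genes the 5 longest were the 5 most enriched with cycloheximide, and all of these but TAZ1 also had the highest presequence scores. The 5 with at least 283 residues, the length of Crd1, stood between 2.32 and 2.95 with cycloheximide. The 4 shorter ones, Ups2 with 230 residues, Gep4 with 185, Ups1 with 175 and Mdm35 with 86, stood between 0.26 and 1.07. This split was chosen after the values were seen. Among all annotated mitochondrial genes with enough reads, 52.5% of the 746 with at least 283 residues and 27.6% of the 352 shorter ones were 2-fold or more over the median gene. The MitoProt score, a prediction of a mitochondrial presequence in the authors' deposited table, was 0.99 for both PGS1 and TAM41, 0.98 for CRD1 and 0.97 for PSD1. It was 0.60 for GEP4, 0.53 for PSD2, 0.43 for TAZ1, 0.32 for UPS1, 0.0436 for UPS2 and 0.0466 for MDM35. Among annotated mitochondrial genes of at least 283 residues, 93.4% of the 227 with a score of at least 0.9 were 2-fold enriched, against 34.7% of the 519 with a lower score. The median of the first class was 3.05, and PGS1, CRD1, TAM41 and PSD1, which belong to it, all stood lower. TAZ1 belongs to the second class, which had a median of 0.21, and its message stood at 2.64. Of the 239 short genes with a lower score 16.7% were 2-fold enriched, and UPS2 was the 1 of 4 such genes here that reached that size. Length and score were not separated from other properties of these genes, and their part in the values was not tested.

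**Figure D3:**
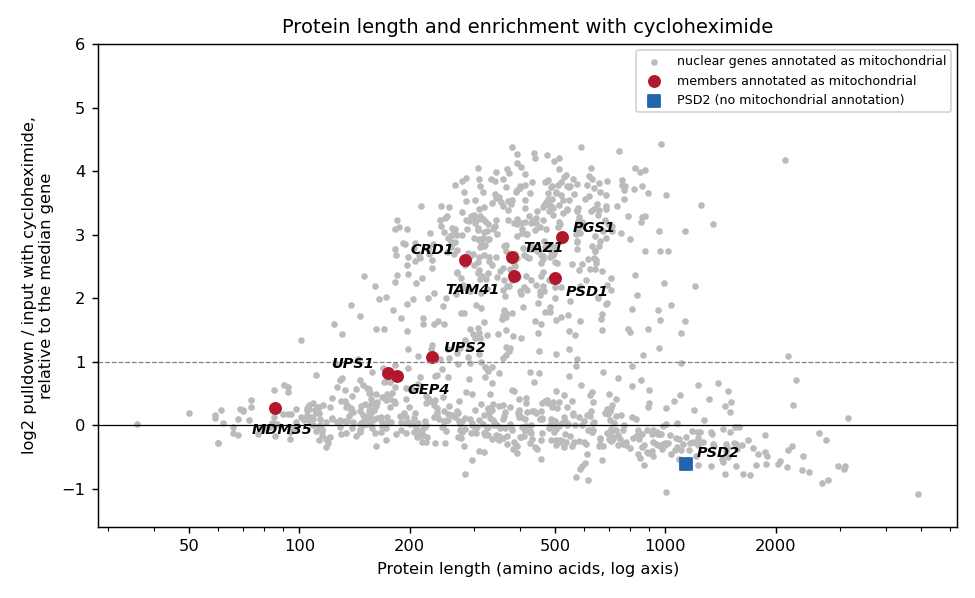
Protein length (log axis) against log2 of pulldown over input with cycloheximide, relative to the median gene, for nuclear genes annotated as mitochondrial (grey), the 9 such genes described here (red) and PSD2 (blue square), with 2-fold dashed. The 5 red points of at least 283 residues lie between 2.32 and 2.95 and the 4 shorter ones between 0.26 and 1.07.

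Other genes of phospholipid metabolism were compared on 4 lists with 33 genes in all, which were drawn up by function with earlier results of these data known. Of 7 other mitochondrial phospholipid genes, 6 were 2-fold or more over the median gene when cells had cycloheximide and 5 when they had not. The shares were 12.5% and 6.39% over all genes with enough reads, and 44.5% and 24.3% over annotated mitochondrial genes. The list medians were 2.65 and 1.29. With cycloheximide PHB1, a prohibitin of the inner membrane, was highest at 3.09, and CLD1, the lipase that removes an acyl chain from cardiolipin before Taz1 acts, stood at 2.78 (2.67 to 2.89). CLD1 and TAZ1, the successive steps of remodelling, did not differ beyond counting error in either condition. FMP30, an inner membrane phospholipase, stood at 2.80, PHB2 at 2.65, and MDM32 and MDM31 of the inner membrane at 2.45 and 2.44. Without the drug MDM32 was highest at 1.72, and FMP30 at 1.55, CLD1 at 1.37, MDM31 at 1.29 and PHB2 at 1.07 were also past 2-fold, whereas PHB1 stood at 0.46. UPS3, a paralog of UPS2, was lowest in both conditions, at 0.50 (0.27 to 0.74) with cycloheximide and -0.13 (-0.60 to 0.33) without. UPS2 exceeded UPS3 by 0.57 (0.31 to 0.82) with the drug, and the assignment of reads common to both copies is not stated in the labels or headers.

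Genes of phospholipid synthesis that were listed as acting mainly in other membranes lay within 2-fold of the median gene in both conditions, as PSD2 did. The authors' deposited table nevertheless gives a mitochondrial annotation to CDS1, PIS1, CHO1 and OPI3 among the 12 genes of the synthesis list and to CPT1 among the 7 of the Kennedy pathway list. None of the 12 synthesis genes and none of the 7 genes of the Kennedy pathway, which builds phosphatidylethanolamine and phosphatidylcholine from ethanolamine and choline, was at least 2-fold above it in either condition. Of all genes 12.5% were with cycloheximide and 6.39% without. With cycloheximide the list medians were 0.00 and -0.35. CHO2, which methylates phosphatidylethanolamine in the endoplasmic reticulum, was the lowest at -0.67 (-0.72 to -0.63), an interval that lies within that of PSD2, and EPT1, the ethanolamine phosphotransferase, stood at -0.53. CHO1, the synthase that makes the phosphatidylserine used by both decarboxylases, stood at -0.20 with cycloheximide and -0.05 without. PAH1, the phosphatidic acid phosphatase, lay just under 2-fold at 0.999 (0.896 to 1.104) with cycloheximide and stood at 0.80 (0.64 to 0.96) without. PCT1 was the highest Kennedy pathway gene with cycloheximide at 0.07, and without the drug that list ran from CKI1, the choline kinase, at -0.35 to EPT1 at 0.07. CHO2 was again the lowest of the synthesis list without the drug, at -0.28.

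Among 7 other lipid transfer proteins, of which the authors' deposited table annotates only CSR1 as mitochondrial, 2 were 2-fold or more over the median gene when cells had cycloheximide and none when they had not. Over all genes the shares were 12.5% and 6.39%, and so small a list cannot be set apart from them. OSH6, an exchanger of phosphatidylserine between the endoplasmic reticulum and the plasma membrane, held 10369 reads in the pulldown and 2446 in the input with cycloheximide, and 1267 and 1510 without. It stood at 2.08 (2.01 to 2.14) with the drug and -0.01 (-0.12 to 0.10) without, and the authors' deposited table calls it not enriched in either condition. Its paralog OSH7 stood at 0.45 with the drug and 0.11 without. CSR1, a protein of the Sec14 family, stood at 1.85 (1.79 to 1.91) with cycloheximide and 0.40 (0.32 to 0.48) without, and it was the highest of the list without the drug. The authors' deposited table calls CSR1, too, not enriched in either condition. SEC14, the phosphatidylinositol transfer protein of the Golgi, was lowest with the drug at -0.05, and PDR17, which serves the Psd2 route, was lowest without it at -0.28.

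The difference between conditions ran along the same lists. It was 2-fold or more over that of the median gene in 5 of the 7 other mitochondrial phospholipid genes. Among all genes 9.57% reached that size, and among annotated mitochondrial genes 38.6%. On this list PHB1 was highest at 2.59, followed by PHB2 at 1.54, CLD1 at 1.37, FMP30 at 1.21 and MDM31 at 1.11. UPS3 was lowest at 0.59. On the synthesis list of other membranes none reached that size, and values ran from GPT2, a glycerol-3-phosphate acyltransferase, at -0.44 to SLC1, an acyltransferase that makes phosphatidic acid, at 0.17. The Kennedy pathway ran from EPT1 at -0.64, close to PSD2, to PCT1 at 0.19, with none past 2-fold. Among the lipid transfer proteins OSH6 at 2.04 and CSR1 at 1.41 passed, and PDR16 was lowest at 0.03. On library totals only PHB1, at 1.94, and OSH6, at 1.39, reached 2-fold on these lists, and 4.55% of all genes did. There PHB2 stood at 0.88, CSR1 at 0.76, CLD1 at 0.71, FMP30 at 0.56 and MDM31 at 0.46.

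**Figure D4:**
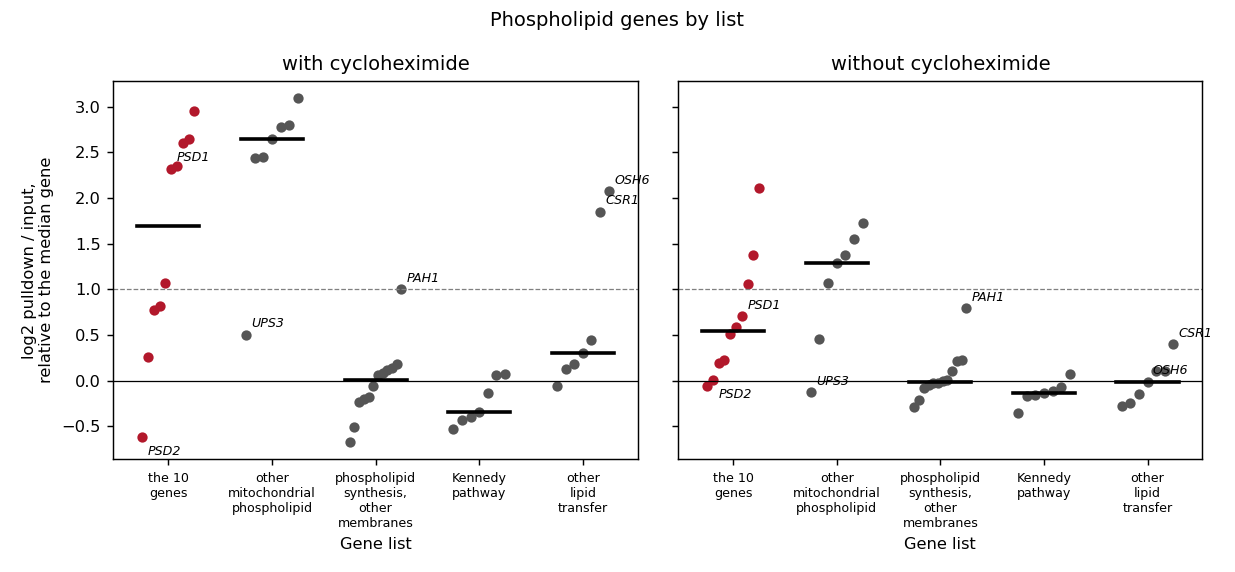
Log2 of pulldown over input, relative to the median gene, for the 10 genes (red) and the 4 lists of other phospholipid genes (grey), with cycloheximide on the left and without it on the right. Points within a list are sorted by value, black bars are list medians and the dashed line marks 2-fold. Apart from the 10 genes and the list of other mitochondrial phospholipid genes, only OSH6 and CSR1 lie above it, both with cycloheximide.

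The inputs show what share of footprints each gene held in whole cells with and without the drug. Fewer messages and fewer ribosomes per message cannot be told apart in such footprints. CRD1 held 1609 reads in the input with cycloheximide and 313 in the input without it, and stood at 1.31 (1.14 to 1.495) relative to the median gene. PGS1 held 489 and 121 reads and stood at 0.96 (0.68 to 1.27). UPS1 held 2060 and 544 reads and stood at 0.87 (0.74 to 1.01). These genes and TAM41, at 0.72 (0.57 to 0.88), took a larger share of the input with cycloheximide than the median gene did. UPS2 stood at 0.25 (0.09 to 0.41), TAZ1 at 0.14 (-0.00 to 0.28), GEP4 at 0.01 (-0.24 to 0.26), PSD2 at -0.03 (-0.19 to 0.13) and MDM35 at -0.16 (-0.30 to -0.03). PSD1 was the lowest at -0.44 (-0.51 to -0.38), from 4957 and 3264 reads. On library totals, where the median gene itself stood at 0.74, all 10 values were above 0, and PSD1 was at 0.29. So PSD1 and MDM35 lay below the median gene but not below equal shares of the libraries, and PSD2 could not be told from the median gene. UPS1 exceeded MDM35 in this ratio by 1.04 log2 units (0.84 to 1.23), whereas PSD1 fell short of TAM41 by 1.17 (interval of PSD1 minus TAM41 -1.33 to -1.004).

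Of the 10 genes only CRD1 was 2-fold or more over the median gene in the input ratio, and none was 2-fold below it. Of all genes, 10.6% were at least 2-fold above and 10.4% at least 2-fold below, so the count above was close to the share of all genes. On the other lists CLD1 was higher still, at 1.96 (1.65 to 2.29), from 748 reads in the input with cycloheximide and 93 without. At the other end SEC14 stood at -1.40, CDS1, the CDP-diacylglycerol synthase of the endoplasmic reticulum, at -1.37 and SFH5 at -1.05. The mitochondrial list had PHB1 as its lowest gene, at -0.56, the synthesis list GPT2 as its highest, at 0.36, and the transfer list OSH7, at -0.22. The Kennedy pathway ran from CPT1 at -0.76 to PCT1 at 0.12. CDS1 and TAM41 make the same lipid in different membranes, and they lay on opposite sides of the median gene.

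**Figure D5:**
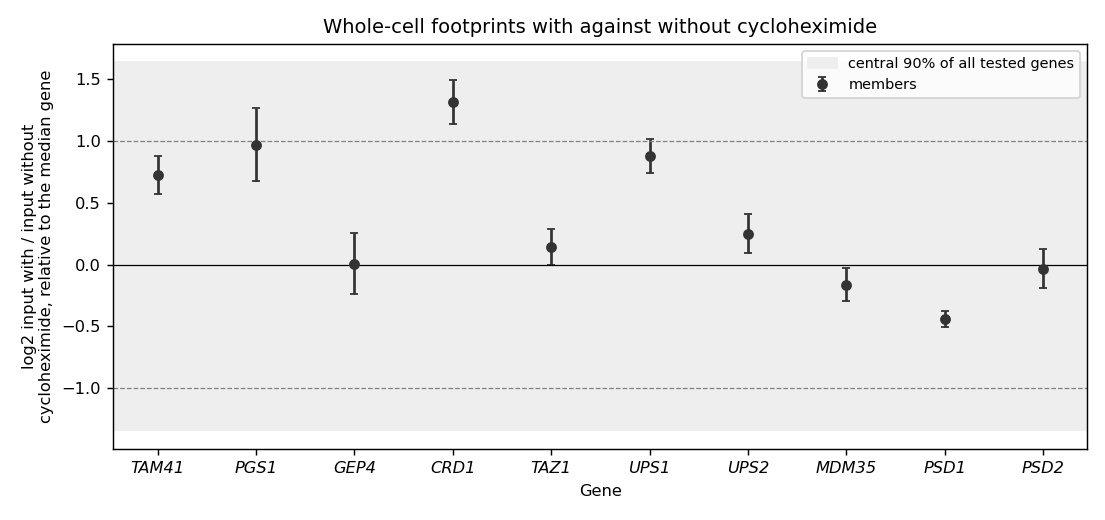
Log2 of input reads with over without cycloheximide for each gene, relative to the median gene, with 95% counting intervals. The grey band holds the central 90% of all genes with enough reads, from -1.34 to 1.64, and all 10 genes lie inside it, with CRD1 highest at 1.31 and PSD1 lowest at -0.44.

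All 10 genes together took 0.170% of nuclear-gene reads in the pulldown with cycloheximide (Wilson 95% interval 0.169% to 0.171%), against 0.0701% in its input (0.0690% to 0.0712%). Without the drug they took 0.0600% in the pulldown (0.0588% to 0.0612%) and 0.0392% in its input (0.0383% to 0.0401%). The 5 cardiolipin genes went with this, at 0.0814% in the pulldown and 0.0238% in the input with cycloheximide, and 0.0188% and 0.00912% without it. The 3 transfer genes differed less, at 0.0204% in the pulldown and 0.0199% in the input with cycloheximide, and 0.00987% and 0.00938% without it. PSD1 held the most reads of the 10 in each library. It had 24928 of their 63692 in the pulldown with cycloheximide and 4957 of 15799 in its input. Without the drug it had 4508 of 9426 and 3264 of 7118.

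Genes with the most similar pattern were sought by distance over 3 values, both enrichments and the input ratio, among 4923 nuclear genes with at least 100 input reads in each condition. The nearest to PSD1 were REX2, PAM17 and TRM5, at distances of 0.16, 0.25 and 0.30 log2 units, all annotated as mitochondrial. The nearest to CRD1 were YDL183C, COX18 and YBL095W, at 0.32, 0.38 and 0.38, also all so annotated. The nearest to PSD2 were YGR125W, YDR307W and STE6, at 0.08, 0.08 and 0.10, none of them annotated as mitochondrial. Both enrichments enter the distance, and of the 682 genes 2-fold or more over the median gene with cycloheximide 489 carry that annotation. The annotations of the neighbours thus follow in part from how they were picked. STE6, an exporter of the plasma membrane, stood at -0.55 with cycloheximide and 0.00 without.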

How the data were processed

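The deposited table holds, per the file headers, raw counts of reads per gene. It also holds RPKM, which the authors scaled by length and depth, and a log2 enrichment that the authors took from pulldown and input RPKM. The MitoProt score, the protein length in amino acids and the mitochondrial annotation are also the authors' deposited values. A gene was taken as mitochondrial if either annotation column of the table marked it. Per the submitters' processing notes the build was sacCer3 and CASAVA was used. Not given in the sources used here are the aligner and the treatment of multiply mapping reads. A further 5 columns, of another fusion protein, stayed unused. The totals behind the RPKM were larger than the sums of counts, which lacked 5.72% of them in the pulldown with cycloheximide, 13.3% in its input, 0.921% in the pulldown without the drug and 1.46% in its input. RPKM therefore compares genes within a library, and ratios between libraries were taken from counts.

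Counts of each library were scaled to its nuclear-gene total after adding 0.5 reads. Genes with at least 100 reads over the 2 libraries compared (in both conditions for the difference) entered a comparison, and values were centred on the median gene. Intervals are exact Clopper-Pearson intervals on the pair of counts, or normal intervals on the log scale for differences between genes or conditions and for ratios of RPKM. The reads carry no molecular identifiers and may repeat a molecule, so intervals cover counting error only. The procedure was run on simulated counts with planted shifts and counting error only. That run could not address spread between replicates or reads that repeat a molecule. Of the table's identifiers, 6008 of 6692 were found in the reference gene table, all members among them, and for all 10 members the annotated length matched that of the deposited table.

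The members and the lists of other phospholipid genes were chosen with earlier results of these data known. Named were all members, the highest and lowest gene of each other list in each comparison, list genes at least 2-fold from the median gene, the bait, the tagged ribosomal protein and the labelled deletions, and the 3 nearest genes to PSD1, PSD2 and CRD1. The values of OSH7 and CHO1 in the enrichments lie outside this rule and were chosen after they were seen. Alternatives were no centring, centring on genes without mitochondrial annotation, a pseudocount of 1, TMM scaling, minimum totals of 1, 20 and 500 reads, folds of 1.5 and 4, and the authors' deposited values. TMM factors came from edgeR 4.0.16 in R 4.3.3, and everything else was done in Python 3.11.15 (numpy 2.4.6, pandas 2.3.3, scipy 1.17.1, matplotlib 3.10.9).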

Additional observations from a re-analysis of the deposited data

Results flagged for a closer look

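None of the 10 genes lay on opposite sides of the median gene in the 2 conditions with both counting intervals away from 0. Of the other phospholipid genes 3 did, and these differences between conditions were not tested. The share of all genes that did so is not given here, so the count is not a result about these lists. GPT2, an acyltransferase of the endoplasmic reticulum, stood at -0.18 with cycloheximide and 0.21 without. PDR17 stood at 0.30 with and -0.28 without, and SFH5, a protein of the Sec14 family, at 0.13 with and -0.24 without. On library totals GPT2 still changed side, at -0.91 with and 0.18 without. There PDR17 was below 0 in both conditions, at -0.43 with and -0.31 without, and so was SFH5, at -0.60 and -0.27.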

How the results depend on the processing

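No paired analysis was possible because each group held 1 library. The differences between PSD1 and PSD2 cannot change with centring, library scaling or the minimum of reads, so those alternatives do not check them. With a pseudocount of 1 and with the authors' deposited values they stayed within their counting intervals, but both rest on the same libraries. The count of members 2-fold or more over the median gene with cycloheximide was 6 and ran from 5 (library totals, or a 4-fold size) to 8 (a 1.5-fold size). Without cycloheximide it was 3, and became 5 at 1.5-fold and 1 at 4-fold. For the difference between conditions it was 4, and became 1 on library totals, 7 at 1.5-fold and 0 at 4-fold. For the input ratio it was 1, and became 4 on library totals, 2 with a minimum of 500 reads (PGS1 then passing), 4 at 1.5-fold and 0 at 4-fold. Shares of all genes moved with the setting too. With cycloheximide they were 9.13% on library totals, 15.8% at 1.5-fold and 8.29% at 4-fold, and without it 10.4% at 1.5-fold and 1.48% at 4-fold. For the difference they were 4.55% on library totals, 14% at 1.5-fold and 2.78% at 4-fold. For the input ratio they were 34.9% on library totals, 7.99% with a minimum of 500 reads, 20.9% at 1.5-fold and 3.31% at 4-fold. The 4 on library totals was thus near the share of all genes. Of the other phospholipid genes, 8 passed with cycloheximide, or 9 where PAH1 passed and 7 at 4-fold, and 5 passed without, which became 6 at 1.5-fold, 3 with a minimum of 500 reads (CLD1 and MDM31 then left out) and 0 at 4-fold. Over all genes library totals gave 499 higher and 880 lower with cycloheximide against 682 and 11 when centred, 234 and 693 against 492 and 32 for the difference, and 1875 and 115 against 568 and 560 for the input ratio. A 4-fold size left 453 higher with cycloheximide, 76 of 329 without, 143 for the difference and 178 for the input ratio. A 1.5-fold size gave 537 without the drug and 1122 for the input ratio, and a minimum of 1 read gave 1027 for the input ratio. PGS1, with 121 reads in the input without cycloheximide, had the widest interval there among the members.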
